A study of Mus musculus with 21 samples.

Results

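In mouse CD8 T cell cultures, the change that repeated T cell receptor (TCR) stimulation made in each gene's RNA was compared between OT-I cells on melanoma cells and vehicle-treated cells on plate-bound antibody. The chronic effect is the level in chronically stimulated cultures minus the level in acutely stimulated ones, on the log2(RPKM + 1) scale, where RPKM is a read count corrected for gene length and for sequencing depth. The quantity described is the OT-I chronic effect minus the vehicle chronic effect, called the difference of effects. A positive difference means that a gene went higher, or less far down, under chronic stimulation in the OT-I experiment. The comparison used 12 of the 21 libraries and the 12109 of 13202 listed genes that reached 1 RPKM in at least 3 of these 12 libraries.

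The OT-I chronic and OT-I acute groups (3 libraries each) held cells of OT-I TCR transgenic mice, whose receptor recognises the ovalbumin peptide SIINFEKL on MHC class I. After 48 h with peptide they were kept on B16-F10 melanoma cells, a C57BL/6 tumour line pretreated with 1 ng/mL interferon-γ to raise MHC class I. Peptide was added again every 48 h in the chronic group and left out in the acute group. The vehicle chronic and vehicle acute groups (3 libraries each) held C57BL/6 cells stimulated for 48 h with anti-CD3 and anti-CD28. They were kept without tumour cells, with plate-bound anti-CD3 renewed every 48 h in the chronic group and no anti-CD3 in the acute group. The labels do not name the vehicle, which is that of an N-acetylcysteine experiment. Vehicle cells were held in 10 ng/mL IL-2, and all 4 groups were harvested on day 8. The labels give spleen and inguinal lymph nodes as the source of polyclonal cells, and state neither a source nor IL-2 separately for the OT-I co-cultures. Mouse strain, receptor, kind of stimulus, melanoma cells and experiment all differ between OT-I and vehicle cultures, so their parts in a difference of effects cannot be told apart. Whether the 3 libraries of a group are separate cultures or animals is not stated, so a p-value here reflects the spread among these libraries, part of which may be technical.

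Antigen that persists drives CD8 T cells towards a state called exhaustion, in which inhibitory receptors such as PD-1 stay on the surface and memory-associated factors such as TCF-1 are lost. Engagement of the TCR induces the NR4A and EGR transcription factors and the feedback inhibitors of its own signalling within hours. Interferon-γ made by T cells acts on both T cells and tumour cells, where it induces guanylate-binding proteins, immunoproteasome subunits and chemokines.

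Depths were 13121180 to 25218890 reads in genes per OT-I library and 14696045 to 17539278 per vehicle library. The OT-I libraries held much melanoma RNA. Summed melanocyte marker levels (13 genes) were 4717 to 4842 RPKM in OT-I chronic and 8037 to 8345 RPKM in OT-I acute libraries, against 1.65 to 2.26 RPKM in vehicle chronic and 10.4 to 11.2 RPKM in vehicle acute libraries. Of these markers, Tyrp1, Tyr, Slc45a2 and Mc1r were listed at 0 in every vehicle library. Summed CD8 T cell markers (7 genes) were 878 to 900 RPKM in OT-I chronic and 1026 to 1293 RPKM in OT-I acute libraries, against 1818 to 1831 RPKM in vehicle chronic and 1475 to 1533 RPKM in vehicle acute libraries. The labelled cell type was present by its markers in all 12 libraries. Summed adherent cell markers (10 genes) were higher in OT-I chronic libraries instead, at 309.9 to 339.8 RPKM in OT-I chronic and 191 to 207 RPKM in OT-I acute libraries, against 3.25 to 4.31 RPKM in vehicle chronic and 0.543 to 1.27 RPKM in vehicle acute libraries. By summed level these marker lists did not share a direction, and the share of tumour RNA was not estimated. Gene by gene, 3 of 10 adherent cell markers rose and 6 fell in OT-I chronic cultures. Of 13 melanocyte markers, 1 rose and 9 fell there, while 25.0% of all genes tested rose and 41.7% fell. The marker levels move with the OT-I effects below, and their part in the results was not tested. In bulk samples, fewer cells of a type and less RNA per cell cannot be told apart. One OT-I acute library (replicate 3) stood apart, with a median of 1.12 RPKM over 1512 low genes, against 0.291 and 0.401 RPKM in replicates 1 and 2 of that group. OT-I chronic replicate 3 was also apart by read counts, with a chi-square per gene of 46.5 and 56.1 against replicates 1 and 2, which had 2.44 between them, while pairs of OT-I acute libraries had 16.6 to 34.3.

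**Figure D1:**
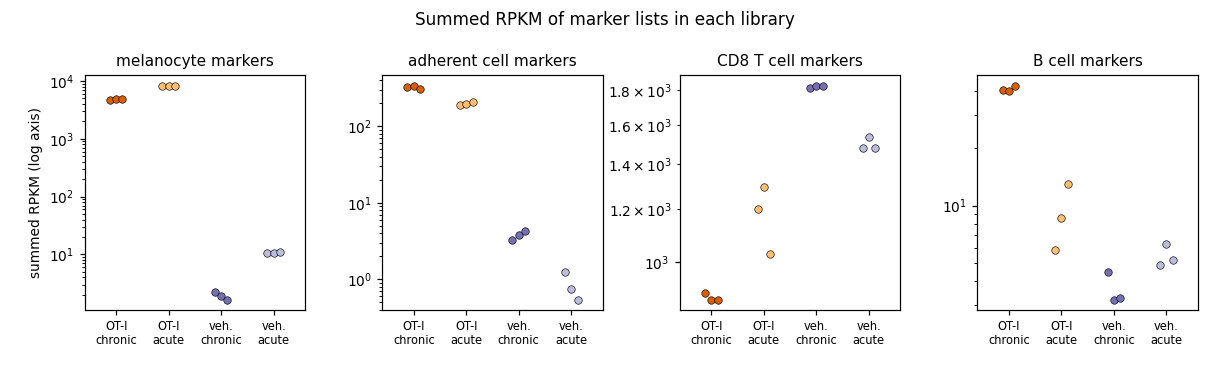
Summed RPKM of marker lists in each library (points, log axis), for melanocyte, adherent cell, CD8 T cell and B cell markers in the 4 groups. Melanocyte markers lie between 4717 and 8345 RPKM in OT-I libraries and at 11.2 RPKM or less in vehicle libraries, and CD8 T cell markers are lower in all OT-I libraries than in any vehicle library.

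The chronic effect of many genes differed between the OT-I and vehicle experiments. The difference of effects was called for 8056 of 12109 genes (66.5%), of which 3662 were higher (30.2% of genes tested) and 4394 lower (36.3%) in OT-I cultures, in a limma test whose adjusted p (Benjamini-Hochberg, all 12109 genes) was under 0.05. It reached 2-fold for 820 higher genes (6.77%) and 1030 lower genes (8.51%). With so large a share called, the counts for the gene lists below are read against these shares. The OT-I effect itself was called for 8072 genes (66.7%) and the vehicle effect for 7894 genes (65.2%), but changes of at least 2-fold were fewer in OT-I cultures, with 368 genes higher (3.04%) and 352 lower (2.91%), against 744 higher (6.14%) and 595 lower (4.91%) in vehicle cultures. Which experiment had more called genes depended on the fit. With a weight for each group, 7224 OT-I and 8693 vehicle effects were called, and at a pseudocount of 0.1, 7797 and 8085. The median difference over all genes was -0.06. Without OT-I acute replicate 3, 4047 genes were higher and 4605 lower, and without OT-I chronic replicate 3, 3568 were higher and 4123 lower.

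Among the 8056 called differences, 2336 genes moved in opposite directions, with both effects called. Of these, 1156 rose in OT-I and fell in vehicle chronic cultures, and 1180 fell in OT-I and rose in vehicle chronic cultures. Genes that rose in both experiments numbered 187 with the larger rise in OT-I and 483 with the larger rise in vehicle cultures. Genes that fell in both numbered 383 with the larger fall in OT-I and 648 with the larger fall in vehicle cultures. For 1994 genes only the OT-I effect was called, for 1917 only the vehicle effect, and for 108 neither. Across all 12109 genes, which are not independent replicates, the 2 effects had a Pearson r of 0.272 and a Spearman rho of 0.112, and the SD of the effect was 0.547 in OT-I and 0.772 in vehicle cultures.

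**Figure D2:**
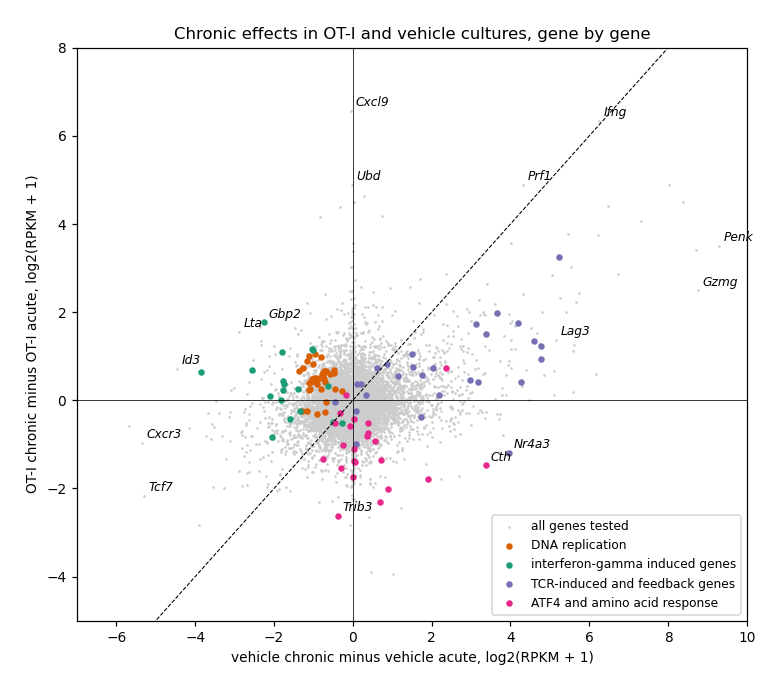
Vehicle chronic effect (x axis) and OT-I chronic effect (y axis) of each of 12109 genes on the log2(RPKM + 1) scale, with 4 gene lists in colour and the dashed line of equal effects. All DNA replication genes and most interferon-γ induced genes lie above the line, and most TCR-induced and ATF4 genes below it.

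**Figure D3:**
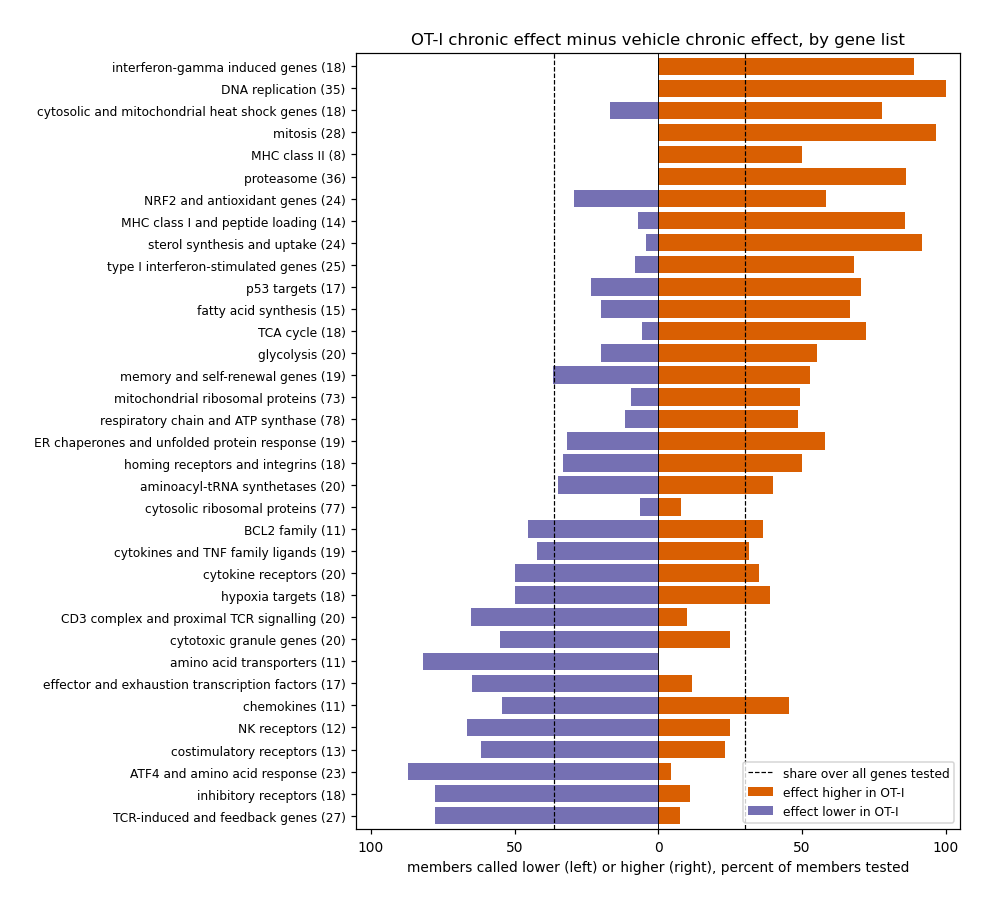
Share of the tested members of 35 gene lists whose effect was called higher (right) or lower (left) in OT-I cultures, in percent, ordered by the median difference of effects, with the number of members in parentheses. The dashed lines mark the shares over all genes, 30.2% higher and 36.3% lower.

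Most genes that the TCR induces rose in both experiments, and for most the rise was smaller in OT-I cultures. Of 27 TCR-induced and feedback genes, 21 had a lower and 2 a higher effect in OT-I cultures, with a median difference of -1.38. The median effect was 0.56 in OT-I and 2.04 in vehicle cultures. On the log2 scale, the median level in OT-I minus vehicle cultures was 0.58 in the acute and -1.02 in the chronic groups. OT-I levels were below vehicle levels for 8 of the 27 genes in the acute and 19 in the chronic groups. Whether melanoma cells or T cells carried the OT-I values was not tested. Of the list, 20 genes rose and 4 fell in OT-I chronic cultures (25.0% and 41.7% of all genes tested did), and 23 rose and 1 fell in vehicle chronic cultures (27.4% and 37.7%). Nr4a3, an orphan nuclear receptor of this class, had 25.7, 25.7 and 23.8 RPKM in OT-I chronic and 56.1, 53.1 and 66.5 RPKM in OT-I acute libraries. In vehicle chronic libraries it had 34.4, 34.2 and 35.5 RPKM, against 1.39, 1.13 and 1.38 RPKM in vehicle acute libraries. The gene was thus low only in the vehicle acute libraries, and no groups of an experiment overlapped. Nr4a3 fell in OT-I cultures (effect -1.19) and rose in vehicle cultures (effect 3.96), with a difference of -5.15 (SE 0.106, limma adjusted p = 1.23e-12). Its relative Nr4a1 rose in both, to 11.3 ± 0.642 RPKM in OT-I chronic against 8.21 ± 0.844 RPKM in OT-I acute cultures, and to 40.2 ± 1.26 RPKM in vehicle chronic against 1.15 ± 0.0228 RPKM in vehicle acute cultures, given here and below as mean ± SD of 3 libraries (difference -3.84, SE 0.0940).

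Inhibitory receptors also mostly had smaller effects in OT-I cultures. Of 18 tested, 14 had a lower and 2 a higher effect in OT-I cultures (median difference -1.28; 4 were higher without OT-I acute replicate 3), while 10 rose and 6 fell in OT-I, and 12 rose and 4 fell in vehicle chronic cultures. Lag3, which encodes an MHC class II binding inhibitory receptor, had 88.7, 90.2 and 90.4 RPKM in OT-I chronic and 34.3, 38.3 and 30.4 RPKM in OT-I acute libraries, against 349.6, 358 and 352 RPKM in vehicle chronic and 8.72, 9.34 and 8.76 RPKM in vehicle acute libraries. All chronic libraries were above the acute ones of their experiment. The effect was 1.37 in OT-I and 5.15 in vehicle cultures, a difference of -3.79 (SE 0.0917, limma adjusted p = 3.53e-12). Pdcd1, the gene of PD-1, had 58.8, 56.6 and 56.5 RPKM in OT-I chronic and 19.3, 18.8 and 15.2 RPKM in OT-I acute libraries. It had 207, 214 and 213 RPKM in vehicle chronic and 7.66, 8.003 and 8.88 RPKM in vehicle acute libraries. The groups of each experiment were again apart, with the wider gap in vehicle cultures (difference -2.89, SE 0.105, limma adjusted p = 9.08e-11). Havcr2, the gene of TIM-3, rose in both experiments (effects 2.01 in OT-I and 2.96 in vehicle cultures) with a smaller difference of -0.94 (SE 0.0640). Ctla4, a CD28 family inhibitor, fell to 63.7 ± 0.740 RPKM in OT-I chronic against 131 ± 4.89 RPKM in OT-I acute cultures, and rose to 169.6 ± 3.29 RPKM in vehicle chronic against 45.1 ± 3.53 RPKM in vehicle acute cultures (difference -2.92).

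**Figure D4:**
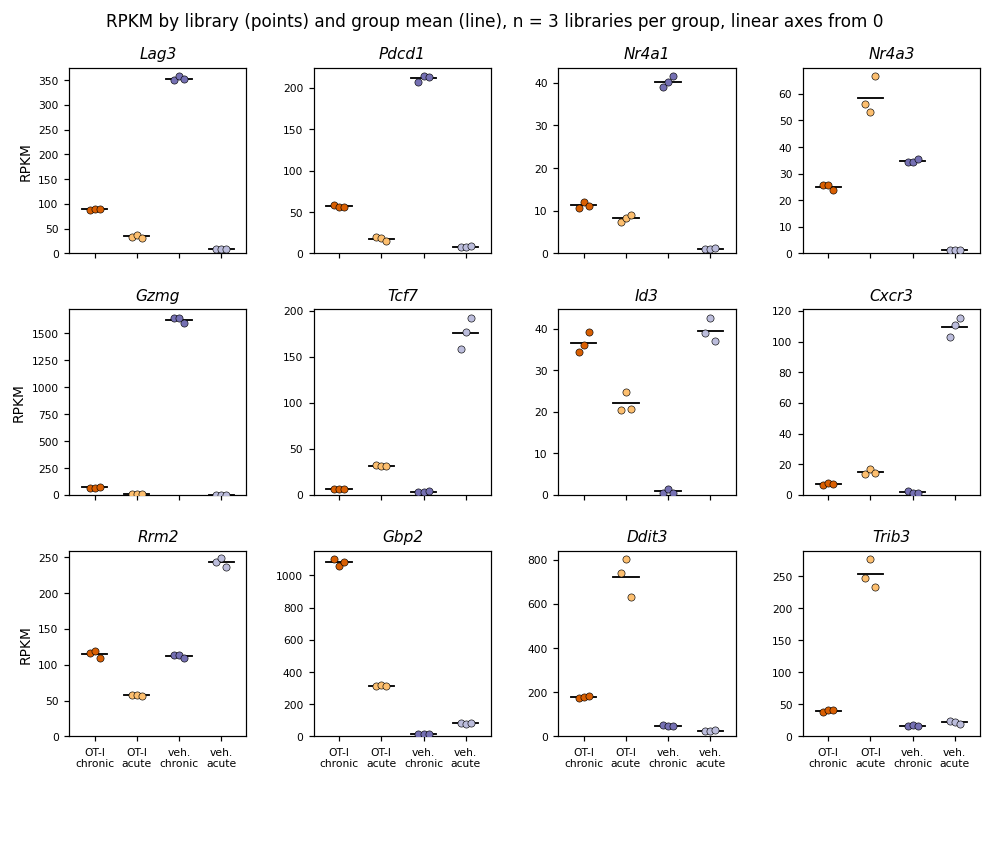
RPKM of 12 genes in each of the 12 libraries (points) with the mean of each group of 3 (line), on linear axes from 0, OT-I groups left of vehicle groups. Lag3, Pdcd1, Nr4a1 and Gzmg are highest in vehicle chronic libraries, Tcf7 and Cxcr3 in vehicle acute libraries, Gbp2 in OT-I chronic libraries and Ddit3 and Trib3 in OT-I acute libraries.

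The other receptors and signalling genes of activated T cells mostly gained more in vehicle chronic cultures. Effects were lower in OT-I cultures for 8 and higher for 3 of 13 costimulatory receptors (median difference -0.96), and lower for 8 and higher for 3 of 12 NK receptors (median -0.89). Tnfrsf4, the gene of the receptor OX40, rose by 0.71 in OT-I and 3.11 in vehicle cultures (difference -2.40). Fcer1g, which encodes a signalling adaptor of NK receptors, rose by 1.16 in OT-I and 4.02 in vehicle cultures, and the adaptor gene Tyrobp (DAP12) rose by 1.95 and 3.34 in the same order. Slamf6, the gene of the receptor Ly108 found on memory-like cells, went the other way, with an effect of -0.28 in OT-I and -3.67 in vehicle cultures (difference 3.39). Within the CD3 complex and proximal TCR signalling, 13 of 20 genes had lower and 2 higher effects in OT-I cultures (median -0.42). Sla, an adaptor that lowers TCR levels, fell by 1.31 in OT-I and rose by 0.83 in vehicle cultures. Themis, a TCR signalling protein, fell in both, to an effect of -0.24 in OT-I and -2.26 in vehicle cultures (difference 2.02). Cd8a, the coreceptor chain, had 98.3 ± 2.97 RPKM in OT-I chronic and 106 ± 3.44 RPKM in OT-I acute cultures, against 145 ± 1.37 RPKM in vehicle chronic and 87.1 ± 1.76 RPKM in vehicle acute cultures (difference -0.84, SE 0.0582). Summed CD8 T cell markers were lower in OT-I chronic than in OT-I acute libraries and higher in vehicle chronic than in vehicle acute libraries, as given above, and their part in these gene lists was not tested.

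Transcription factors of effector and exhausted cells had lower effects in OT-I cultures for 11 and higher effects for 2 of 17 members (median -0.74). Ikzf2, the gene of Helios, had 3.53 ± 0.164 RPKM in OT-I chronic and 4.54 ± 0.210 RPKM in OT-I acute cultures, against 35.2 ± 0.769 RPKM in vehicle chronic and 4.02 ± 0.735 RPKM in vehicle acute cultures. It thus reached its highest level in vehicle chronic cultures alone (difference -3.15, SE 0.121). Zeb2, a repressor of memory genes, rose in vehicle cultures (effect 1.94), while its OT-I effect of 0.13 missed the threshold. It was nevertheless higher in the OT-I groups (18.3 and 16.8 RPKM in OT-I chronic and acute) than in the vehicle groups (6.49 and 0.954 RPKM in vehicle chronic and acute). Which cell type, T cell or melanoma, held the Zeb2 RNA of OT-I cultures was not tested. Tox, a factor of exhausted cells, was low, at 0.754, 0.487 and 0.671 RPKM in OT-I chronic and 1.15, 1.41 and 1.68 RPKM in OT-I acute libraries, and 0.791, 0.560 and 0.999 RPKM in vehicle chronic and 1.04, 0.883 and 1.26 RPKM in vehicle acute libraries. Its difference of -0.34 (SE 0.166) was not called (limma adjusted p = 0.0837), although it was called without OT-I acute replicate 1 (adjusted p = 0.0385) and without vehicle chronic replicate 2 (adjusted p = 0.0386).

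The main effector products divided into those with like and unlike effects. Ifng, the gene of interferon-γ, had 619, 637 and 641 RPKM in OT-I chronic and 7.33, 7.04 and 6.11 RPKM in OT-I acute libraries. It had 432, 439 and 420.5 RPKM in vehicle chronic and 5.20, 4.67 and 4.13 RPKM in vehicle acute libraries. Every chronic library was far above every acute one, and the effects of 6.34 in OT-I and 6.25 in vehicle cultures had a difference of 0.09 (SE 0.0973, limma adjusted p = 0.444), which was not called. Gzmb, the gene of granzyme B, likewise had effects of 1.29 in OT-I and 1.39 in vehicle cultures (difference -0.11, SE 0.187, limma adjusted p = 0.635). Prf1, the gene of perforin, rose to 773 ± 18.7 RPKM in OT-I chronic against 25.2 ± 0.848 RPKM in OT-I acute cultures, and to 1391 ± 19.0 RPKM in vehicle chronic against 69.0 ± 9.63 RPKM in vehicle acute cultures (difference 0.56, SE 0.107). Of the 20 cytotoxic granule genes, 11 had lower and 5 higher effects in OT-I cultures. The lowest was Gzmg, of the clustered granzymes, with 68.4, 66.0 and 75.1 RPKM in OT-I chronic and 11.97, 11.997 and 10.7 RPKM in OT-I acute libraries. Vehicle chronic libraries had 1641, 1643 and 1600.0 RPKM of it and vehicle acute libraries 3.79, 2.92 and 1.79 RPKM. Gzmg rose in both experiments with no overlap of groups, but its difference of -6.27 (SE 0.196, limma adjusted p = 2.62e-11) was the most negative of all genes tested. Its neighbour Gzmf had a difference of -5.28. These granzymes are near-identical copies, and reads may have been split between them, so their single values are uncertain.

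Cytokine and chemokine genes did not share a direction. Of 19 cytokines and TNF family ligands, 6 had higher and 8 lower effects in OT-I cultures, shares close to those over all genes. Lta, the gene of lymphotoxin α, had 136, 141 and 142 RPKM in OT-I chronic and 45.3, 49.4 and 46.5 RPKM in OT-I acute libraries, against 5.39, 6.02 and 5.15 RPKM in vehicle chronic and 55.0, 48.9 and 38.2 RPKM in vehicle acute libraries. The 2 acute groups stood at like levels, while the chronic groups moved apart in opposite directions (difference 4.43, SE 0.141, limma adjusted p = 3.08e-11). Il5, a type 2 cytokine gene, rose in vehicle cultures (effect 2.96) and had an OT-I effect of -0.29 that missed the threshold. Of 11 chemokine genes, 5 had higher and 6 lower effects in OT-I cultures; leaving out the 3 that are high in the co-culture, 2 were higher and 6 lower. Ccl9, a ligand of CCR1, rose by 1.12 in OT-I and 5.59 in vehicle cultures. Of 20 cytokine receptors, 7 had higher and 10 lower effects. Il1r2, a decoy receptor for interleukin 1, rose by 3.01 in OT-I and 5.53 in vehicle cultures, and Il18r1, a chain of the interleukin 18 receptor, fell by 0.89 in OT-I and 3.59 in vehicle cultures.

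The memory-associated gene Tcf7 fell further in vehicle than in OT-I chronic cultures, and Id3 fell in vehicle and rose in OT-I chronic cultures. Of 19 memory and self-renewal genes, 10 had higher and 7 lower effects in OT-I cultures, while 5 rose and 10 fell in OT-I, and 4 rose and 12 fell in vehicle chronic cultures. Tcf7, which encodes TCF-1, had 6.45, 6.07 and 6.33 RPKM in OT-I chronic and 32.1, 31.9 and 31.1 RPKM in OT-I acute libraries, against 3.23, 3.37 and 3.90 RPKM in vehicle chronic and 158, 176 and 192 RPKM in vehicle acute libraries. It fell in both experiments, and the acute groups differed more than the chronic ones (difference of effects 3.13, SE 0.0984, limma adjusted p = 2.88e-11). Id3, an inhibitor of E proteins kept by memory precursors, had 34.4, 36.1 and 39.2 RPKM in OT-I chronic and 20.5, 24.8 and 20.7 RPKM in OT-I acute libraries. It had 0.592, 1.44 and 0.560 RPKM in vehicle chronic and 38.8, 42.6 and 37.0 RPKM in vehicle acute libraries. Only the vehicle chronic libraries were low, and the difference of 5.18 (SE 0.197, limma adjusted p = 1.41e-10) was the highest outside the genes high in co-culture. Il7r, the interleukin 7 receptor chain, rose in vehicle cultures (effect 0.95) with an uncalled OT-I effect of 0.06, so that its difference was -0.88. How far melanoma cells carried the OT-I values of Id3 and the other genes of this list was not tested.

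Homing receptors and integrins had 9 higher and 6 lower effects among 18 members. Cxcr3, a receptor for the interferon-induced chemokines CXCL9, CXCL10 and CXCL11, had 6.66, 7.89 and 7.11 RPKM in OT-I chronic and 14.0, 16.8 and 14.3 RPKM in OT-I acute libraries, against 2.34, 1.45 and 1.44 RPKM in vehicle chronic and 103, 111 and 115 RPKM in vehicle acute libraries. It fell in both experiments without overlap, by far the most in vehicle cultures (difference 4.39, SE 0.158, limma adjusted p = 8.4e-11). Ccr8, a receptor for CCL1, rose in vehicle cultures (effect 3.02) and stayed under 1 RPKM on average in both OT-I groups.

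Most DNA replication genes rose in OT-I chronic cultures, and all fell in vehicle chronic cultures. All 35 tested had a higher effect in OT-I cultures (median difference 1.35, range 0.44 to 2.10), against 30.2% of all genes. In OT-I cultures 30 rose and 4 fell (median effect 0.49), and in vehicle cultures all 35 fell (median -0.92). The median level in OT-I minus vehicle cultures was -1.28 in the acute groups and 0.09 in the chronic groups, on the log2 scale, so the experiments stood apart when acutely stimulated and close together when chronically stimulated. Rrm2, the small subunit of ribonucleotide reductase, had 117, 119 and 110.2 RPKM in OT-I chronic and 57.5, 58.3 and 56.4 RPKM in OT-I acute libraries. It had 114, 114 and 110.2 RPKM in vehicle chronic and 244, 249.6 and 236 RPKM in vehicle acute libraries. The 2 chronic groups overlapped in level, with the OT-I acute libraries below and the vehicle acute libraries above them (difference of effects 2.10, SE 0.0610, limma adjusted p = 1.49e-11). Uhrf1, which links replication to maintenance of DNA methylation, had a difference of 2.05 (SE 0.0587).

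Mitosis genes had a higher effect in OT-I cultures for 27 of 28 members (median difference 0.84), but unlike replication genes they did not rise as a list: 3 rose and 16 fell in OT-I, and 27 fell in vehicle chronic cultures. Top2a, topoisomerase IIα, had 117 ± 6.84 RPKM in OT-I chronic and 109 ± 5.91 RPKM in OT-I acute cultures, against 113 ± 0.941 RPKM in vehicle chronic and 309 ± 6.93 RPKM in vehicle acute cultures (difference 1.54, SE 0.0745). Mki67, the proliferation marker Ki-67, had an uncalled OT-I effect of -0.20 and fell in vehicle cultures (effect -1.11). Cdc20, an activator of the anaphase-promoting complex, had a difference of 1.46. Whether T cells or tumour cells carried the OT-I values was not tested.

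**Figure D5:**
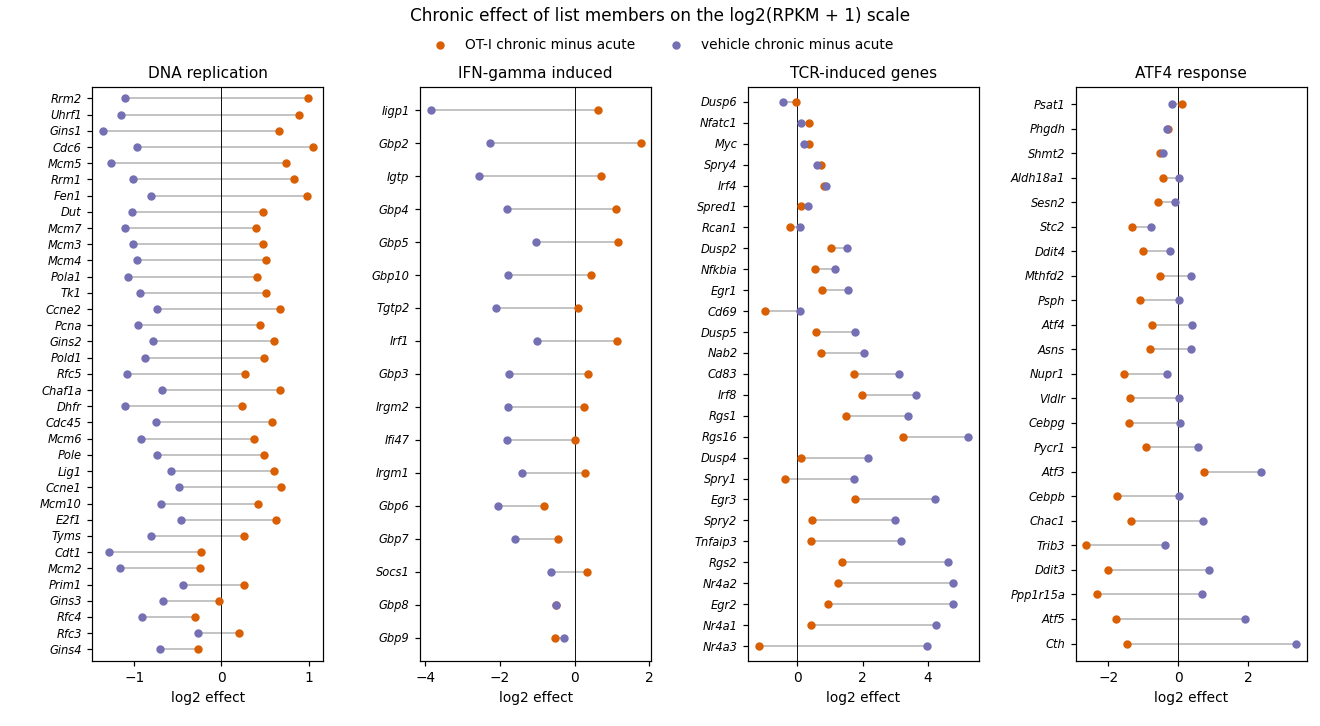
OT-I chronic effect and vehicle chronic effect of members of 4 gene lists on the log2(RPKM + 1) scale, a pair of points per gene joined by a line. Every DNA replication gene has its OT-I point to the right, most interferon-γ induced genes do, and most TCR-induced and ATF4 genes have it to the left.

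The promoters of 5 lists were searched for motifs of factors known to act on such genes. Promoter sequence from RefSeq (build GRCm38.p6, 250 bases before to 50 after the start) was matched for 28 of 35 DNA replication genes. Of these, 10 (35.7%) held TTTGGCGC or TTTCCCGC, E2F motifs, on either strand. Among all 27025 genes with a promoter sequence 1.8% did, and 0 of 23 matched mitosis genes did. The 27025 genes were not limited to those tested for effects. Of 11 matched interferon-γ induced genes, 9 (81.8%) held the interferon-stimulated response element, against 3.99% of the 27025 genes. The element was taken as GAAA followed after any 2 bases by GAAA. Of 22 matched ATF4 response genes, 7 (31.8%) held the composite element TGATGNAA, against 4.51%. Of 17 matched sterol genes, 1 (5.88%), Hmgcs1, held the sterol regulatory element TCACNCCAC, against 1.44%. A match describes the letters in the window and is neither a shown binding site nor a cause. For the first 3 motifs, an example promoter is printed below in lower case, 5′ to 3′ on the gene's strand, with the match in capitals, which reads as the reverse complement where it lies on the other strand. Cdc6, a loader of the replicative helicase (chr11:98907901-98908200, + strand), holds the E2F motif. Gbp2 (chr3:142620413-142620712, + strand) holds the interferon-stimulated response element, and Trib3 (chr2:152344011-152344310, - strand) the composite element. These 3 are motif holders with large differences of effects in their lists (Cdc6 at 2.02), and all 3 were chosen after their values were seen.
Cdc6: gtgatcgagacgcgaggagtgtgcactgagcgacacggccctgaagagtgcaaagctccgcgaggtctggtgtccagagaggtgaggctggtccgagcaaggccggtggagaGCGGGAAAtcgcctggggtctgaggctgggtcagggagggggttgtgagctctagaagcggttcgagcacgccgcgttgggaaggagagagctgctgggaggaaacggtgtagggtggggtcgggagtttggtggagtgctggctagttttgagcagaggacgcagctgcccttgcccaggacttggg
Gbp2: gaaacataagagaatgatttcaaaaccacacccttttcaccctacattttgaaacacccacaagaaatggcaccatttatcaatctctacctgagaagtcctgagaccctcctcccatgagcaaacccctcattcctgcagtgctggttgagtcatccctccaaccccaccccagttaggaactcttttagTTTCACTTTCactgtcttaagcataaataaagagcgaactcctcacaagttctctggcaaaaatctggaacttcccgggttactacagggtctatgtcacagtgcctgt
Trib3: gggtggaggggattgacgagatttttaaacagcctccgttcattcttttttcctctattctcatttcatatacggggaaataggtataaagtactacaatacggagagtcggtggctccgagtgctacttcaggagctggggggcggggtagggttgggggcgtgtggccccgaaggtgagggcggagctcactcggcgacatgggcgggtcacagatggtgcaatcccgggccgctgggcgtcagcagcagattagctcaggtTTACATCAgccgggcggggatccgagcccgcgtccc

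Most interferon-γ induced genes rose in OT-I chronic cultures, and all fell in vehicle chronic cultures. Of 18 tested, 16 had a higher and none a lower effect in OT-I cultures (median difference 2.07; 1 was lower without OT-I acute replicate 2 and 1 without vehicle acute replicate 3). In OT-I cultures 11 rose and 5 fell, and in vehicle cultures all 18 fell. Gbp2, a guanylate-binding GTPase whose promoter is printed above, had 1099, 1060.5 and 1083 RPKM in OT-I chronic and 314, 318 and 316 RPKM in OT-I acute libraries. It had 16.4, 16.2 and 15.8 RPKM in vehicle chronic and 83.1, 77.3 and 82.5 RPKM in vehicle acute libraries. All OT-I libraries were above all vehicle libraries, and chronic stimulation widened that gap (difference 4.03, SE 0.0592, limma adjusted p = 7.05e-14). Members of the Gbp and Irgm families are close in sequence, so reads may be split among them and single members are uncertain. Ifng RNA rose in both experiments, as given above. Type I interferon-stimulated genes had higher effects for 17 and lower for 2 of 25 members, and for 11 and 2 without the 8 that are high in co-culture. With libraries rescaled to a common median, or without vehicle chronic replicate 2, none of the list was lower. Few of the list rose in OT-I cultures, where 4 rose and 7 fell (median effect -0.06). In vehicle cultures 21 fell and none rose (median -0.64). Oas3, which makes the activator of RNase L, rose to 109 ± 5.85 RPKM in OT-I chronic against 68.9 ± 4.69 RPKM in OT-I acute cultures, and fell to 5.98 ± 0.303 RPKM in vehicle chronic against 38.8 ± 1.22 RPKM in vehicle acute cultures (difference 3.17, SE 0.0821). Whether melanoma cells or T cells carried the OT-I values was not tested.

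Most antigen presentation and proteasome genes also had higher effects in OT-I cultures. Higher effects in OT-I cultures were called for 12 and a lower one for 1 of 14 MHC class I and peptide loading genes (median difference 0.65). Nlrc5, the transactivator of MHC class I genes, had 74.8 ± 1.86 RPKM in OT-I chronic and 77.6 ± 11.1 RPKM in OT-I acute cultures, against 11.3 ± 0.770 RPKM in vehicle chronic and 56.7 ± 2.65 RPKM in vehicle acute cultures. Its level was thus kept in OT-I cultures, whose groups overlapped, and fell in vehicle cultures (difference 2.19, SE 0.116). Calr, the gene of the peptide loading chaperone calreticulin, rose by 1.75 in OT-I and 0.37 in vehicle cultures. Of 36 proteasome genes, 31 had a higher and none a lower effect (2 a lower one without OT-I acute replicate 3; median 0.69), 20 rose and 4 fell in OT-I, and 32 fell in vehicle chronic cultures. Psmb10, an immunoproteasome subunit, had a difference of 1.51 (SE 0.129) and Psma5, a subunit of the core particle, one of 1.41 (SE 0.113). Of 8 MHC class II genes, 4 had higher effects. Their transactivator Ciita had 11.9 ± 0.832 RPKM in OT-I chronic and 1.90 ± 0.394 RPKM in OT-I acute cultures, against 0.212 ± 0.0386 RPKM in vehicle chronic and 0.173 ± 0.0665 RPKM in vehicle acute cultures, and H2-Aa, a class II chain, had a difference of 1.46 that was not called by voom on recovered reads (limma adjusted p = 0.0505), by which 2 class II genes had higher effects. Summed B cell markers (7 genes, 6 of them under 1 RPKM in every library of each vehicle group) were 39.7 to 42.6 RPKM in OT-I chronic and 5.84 to 13.0 RPKM in OT-I acute libraries, against 3.20 to 4.50 RPKM in vehicle chronic and 4.87 to 6.31 RPKM in vehicle acute libraries. Of the 7 markers, 5 had higher effects in OT-I cultures, and their part in the class II values was not tested.

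Most ATF4 and amino acid response genes fell in OT-I chronic cultures. ATF4 is a transcription factor translated under amino acid shortage or ER stress, which induces amino acid synthesis and transport genes and the factor CHOP. Of 23 genes tested, 20 had a lower and 1 a higher effect in OT-I cultures (median difference -1.23). In OT-I cultures 21 fell and 1 rose, while in vehicle cultures 10 rose and 7 fell. The median level in OT-I minus vehicle cultures was 1.66 in the acute and 0.29 in the chronic groups, so that the OT-I acute co-cultures stood apart. Ddit3, the gene of CHOP, had 175, 177 and 184 RPKM in OT-I chronic and 738, 801 and 629.9 RPKM in OT-I acute libraries. It had 50.3, 49.6 and 46.0 RPKM in vehicle chronic and 24.6, 26.0 and 27.1 RPKM in vehicle acute libraries. No groups overlapped, and the OT-I acute libraries were the highest (difference -2.89, SE 0.106, limma adjusted p = 9.68e-11). Trib3, a pseudokinase induced by ATF4 and CHOP, had 38.7, 40.8 and 40.8 RPKM in OT-I chronic and 248, 277 and 234 RPKM in OT-I acute libraries, against 16.7, 17.6 and 16.3 RPKM in vehicle chronic and 23.6, 22.5 and 20.2 RPKM in vehicle acute libraries. It fell in both experiments, mostly in OT-I cultures (difference -2.26, SE 0.0938).

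The largest gap of this list was that of Cth, which makes cysteine from cystathionine. Cth had 9.98, 8.92 and 8.72 RPKM in OT-I chronic and 27.9, 28.4 and 26.0 RPKM in OT-I acute libraries, against 11.5, 11.9 and 12.8 RPKM in vehicle chronic and 0.396, 0.0378 and 0.355 RPKM in vehicle acute libraries. It fell in OT-I and rose in vehicle chronic cultures, where the acute libraries were very low (difference -4.86, SE 0.139, limma adjusted p = 1.32e-11). Atf5, another factor of this response, fell by 1.79 in OT-I and rose by 1.92 in vehicle cultures. Of 11 amino acid transporters, 9 had lower effects in OT-I cultures and none a higher one (median -0.74). Slc7a3, a cationic amino acid transporter, had a difference of -2.39 (SE 0.107), and Slc7a11, the cystine antiporter, one of -1.83 (SE 0.144). Aminoacyl-tRNA synthetases did not share a direction, with 8 higher and 7 lower of 20, and ranged between Kars at 0.94 and Sars at -1.16. Summed melanocyte markers were also lower in OT-I chronic than in OT-I acute libraries, as given above, and their part in these values was not tested.

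Chaperone genes were mostly higher. Heat shock genes had higher effects in OT-I cultures for 14 and lower for 3 of 18 members (median 0.85). The small heat shock gene Hspb1 had 20.4 ± 0.972 RPKM in OT-I chronic and 4.57 ± 0.736 RPKM in OT-I acute cultures, against 0.108 ± 0.0704 RPKM in vehicle chronic and 0.0867 ± 0.0751 RPKM in vehicle acute cultures. Its difference of 1.93 was called on RPKM but not by voom on recovered reads (limma adjusted p = 0.0688). The inducible HSP70 gene Hspa1a went the other way (difference -2.11), at means of 4.02 RPKM or less in every group, and it is uncertain because reads may be shared with its near-identical copy Hspa1b. Of 19 ER chaperone and unfolded protein response genes, 11 had higher and 6 lower effects. Sdf2l1, an ER chaperone cofactor, rose by 2.09 in OT-I cultures with an uncalled vehicle effect of -0.02, and Dnajb11, a cochaperone of BiP, had a difference of 0.94.

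Lipid synthesis genes mostly rose more in OT-I cultures. Of 24 sterol synthesis and uptake genes, targets of SREBP2, 22 had higher and 1 a lower effect (median difference 0.64), 23 rose in OT-I, and 15 rose and 3 fell in vehicle chronic cultures. Their median level in OT-I minus vehicle cultures was -1.18 in the acute and -0.44 in the chronic groups, on the log2 scale. OT-I levels were below vehicle levels for 24 of the 24 genes in the acute and 23 in the chronic groups. Acat2, an acetoacetyl-CoA thiolase, had a difference of 1.43. Hmgcs1, the enzyme ahead of HMG-CoA reductase, rose in both (effects 1.46 in OT-I and 0.77 in vehicle cultures, difference 0.69, limma adjusted p = 0.00919). Of 15 fatty acid synthesis genes, 10 had higher and 3 lower effects. Fasn, the fatty acid synthase, had 54.5, 54.5 and 49.8 RPKM in OT-I chronic and 19.9, 18.2 and 21.8 RPKM in OT-I acute libraries, against 40.9, 40.4 and 43.2 RPKM in vehicle chronic and 64.4, 60.8 and 58.8 RPKM in vehicle acute libraries. It rose in OT-I and fell in vehicle chronic cultures with no overlap (difference 1.92, SE 0.0890, limma adjusted p = 9.43e-10). Fads2, a fatty acid desaturase, rose by 1.94 in OT-I and 0.63 in vehicle cultures.

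Genes of energy metabolism leaned the same way with smaller differences. Higher and lower effects in OT-I cultures numbered 13 and 1 of 18 TCA cycle genes (median 0.36), 11 and 4 of 20 glycolysis genes (0.33), 38 and 9 of 78 respiratory chain and ATP synthase genes (0.28; 14 lower and a median of 0.17 without OT-I acute replicate 3), and 36 and 7 of 73 mitochondrial ribosomal proteins (0.28). In vehicle chronic cultures 50 of the 78 respiratory genes fell and 4 rose, and in OT-I chronic cultures 18 fell and 15 rose. Pcx, pyruvate carboxylase, rose by 1.04 in OT-I and fell to an effect of -1.42 in vehicle cultures (difference 2.46, SE 0.107), and Idh3a, a subunit of isocitrate dehydrogenase, had a difference of 0.97. Ldha, lactate dehydrogenase A, had a difference of 1.19, and the glucose transporters Slc2a1 and Slc2a3 differences of 0.31 and -1.51. Atp5k, an ATP synthase subunit, had a difference of 1.17. Cox6a2, the heart and muscle isoform of a cytochrome oxidase subunit, had the lowest difference of its list, at 0.954 ± 0.156 RPKM in OT-I chronic and 29.4 ± 5.01 RPKM in OT-I acute cultures, against 2.09 ± 0.258 RPKM in vehicle chronic and 0.526 ± 0.249 RPKM in vehicle acute cultures. Its level was highest in OT-I acute libraries (difference -4.98, SE 0.183, limma adjusted p = 9.97e-11). Among mitochondrial ribosomal proteins, Mrpl28 had a difference of 1.07 and Mrps6 one of -1.35.

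Of 24 NRF2 and antioxidant genes, 14 had higher and 7 lower effects in OT-I cultures (median 0.69). Txn1, thioredoxin, rose to 504 ± 17.6 RPKM in OT-I chronic against 216 ± 29.9 RPKM in OT-I acute cultures and fell to 319 ± 5.71 RPKM in vehicle chronic against 546 ± 21.04 RPKM in vehicle acute cultures (difference 2.00, SE 0.117). G6pdx, which feeds the pentose phosphate pathway, had a difference of 1.98 (SE 0.0669). Hypoxia targets were split, with 7 higher and 9 lower of 18. Vegfa, an angiogenic factor, fell by 1.12 in OT-I and rose by 1.24 in vehicle cultures. Of 17 p53 targets, 12 had higher and 4 lower effects. The strongest exception was the kinase gene Plk2, which rose in vehicle cultures (effect 3.79) with an uncalled OT-I effect of 0.13, and the antiproliferative gene Btg2 had a difference of -1.67. Of 11 BCL2 family genes, 4 had higher and 5 lower effects, and the proapoptotic gene Bcl2l11 (BIM) fell by 0.85 in OT-I and rose by 1.32 in vehicle cultures. Cytosolic ribosomal proteins stood out by how few were called: 6 higher and 5 lower of 77 (median -0.01). Without OT-I acute replicate 3 the counts were 5 higher and 29 lower (median -0.15). Leaving out any 1 of the other libraries gave 3 to 5 lower genes and a median between -0.02 and 0.11, with 10 higher without OT-I acute replicate 2. Many ribosomal protein genes have processed pseudogenes that can take their reads.

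Outside the lists, the lowest differences belonged to genes that vehicle chronic cultures switched on. Penk, the enkephalin precursor, had 41.7, 39.5 and 40.3 RPKM in OT-I chronic and 2.32, 2.48 and 3.18 RPKM in OT-I acute libraries, against 1072, 1052 and 1086 RPKM in vehicle chronic and 0.673, 0.819 and 0.617 RPKM in vehicle acute libraries. It rose in both experiments without overlap, most in vehicle cultures (difference -5.79, SE 0.105, limma adjusted p = 4.71e-13). Slc17a6, a vesicular glutamate transporter, reached 75.1 ± 0.282 RPKM in vehicle chronic against 0.0587 ± 0.0310 RPKM in vehicle acute cultures and stayed under 1 RPKM on average in both OT-I groups (difference -5.57). Crabp2, which carries retinoic acid, and Osr2, a zinc finger factor, had differences of -5.40 and -4.99, with OT-I effects of 0.18 and 0.12 that missed the threshold. Both were near 0 in vehicle acute cultures, and the size of such differences depends on the pseudocount.

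The highest differences held genes of several kinds. Igfbp4, which binds insulin-like growth factors, fell in both experiments, to 20.6 ± 0.834 RPKM in OT-I chronic against 31.4 ± 1.54 RPKM in OT-I acute cultures and to 0.753 ± 0.198 RPKM in vehicle chronic against 88.3 ± 5.93 RPKM in vehicle acute cultures (difference 5.09, SE 0.109). Ubd, the gene of the interferon-γ and TNF induced ubiquitin-like protein FAT10, had 120.4, 121 and 126 RPKM in OT-I chronic and 3.32, 3.12 and 3.09 RPKM in OT-I acute libraries, against 0, 0 and 0 RPKM in vehicle chronic and 0, 0.0726 and 0 RPKM in vehicle acute libraries. It was highest in OT-I chronic libraries, and the OT-I acute libraries were also above all vehicle libraries (difference 4.92, SE 0.0802, limma adjusted p = 1.74e-13). The apolipoprotein L gene Apol6 had the same order of groups, with 84.9 ± 2.50 RPKM in OT-I chronic and 2.83 ± 0.581 RPKM in OT-I acute cultures and a vehicle chronic mean of 0.0119 RPKM (vehicle acute listed at 0). Ly6c1, a GPI-anchored surface protein, rose to 169.6 ± 11.7 RPKM in OT-I chronic against 8.64 ± 1.18 RPKM in OT-I acute cultures, and fell to 1.29 ± 0.181 RPKM in vehicle chronic against 3.07 ± 0.404 RPKM in vehicle acute cultures. It has a near-identical neighbour, so its value is uncertain. Pou2af1, a transcriptional coactivator of B cells, rose to 51.5 ± 2.34 RPKM in OT-I chronic against 1.54 ± 0.368 RPKM in OT-I acute cultures (difference 4.71), beside the B cell markers given above.

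Genes high in the co-culture were treated apart. They numbered 364, each with its lowest OT-I library at 1 RPKM or more and at least 4 times the highest of the 15 libraries without melanoma cells, and may include genes of the tumour cells and genes of either cell type that are higher in co-culture, which cannot be told apart. Leaving them out, 66.4% of genes were called: 3585 of 11745 genes were higher (30.5%) and 4214 lower (35.9%). Of the 13 tested melanocyte markers, 2 had higher and 9 lower effects in OT-I cultures (4 lower by voom). Cxcl9, an interferon-γ induced chemokine, had the highest difference of all genes, with 455, 444 and 446 RPKM in OT-I chronic and 3.49, 3.79 and 3.91 RPKM in OT-I acute libraries, against 0.0216, 0 and 0 RPKM in vehicle chronic and 0, 0.117 and 0.0200 RPKM in vehicle acute libraries. It was highest in OT-I chronic libraries, and the OT-I acute libraries were also above all vehicle libraries (difference 6.62, SE 0.0822, limma adjusted p = 1.65e-14). The interferon-induced GTPase genes Iigp1 and Gbp11 and the predicted gene Gm4841 followed, at 4.50, 3.58 and 3.59. The interferon-induced gene Ifit2 was at 2.90. The lowest were Cd63, a tetraspanin of lysosomes and melanosomes, Gjb2, a connexin, the clock-related repressor Bhlhe41 and the cytochrome b5 reductase gene Cyb5r2, at -3.55, -2.65, -2.50 and -2.08. Cd63 fell to 134 ± 6.78 RPKM in OT-I chronic against 201 ± 37.2 RPKM in OT-I acute cultures, and rose to 8.08 ± 0.896 RPKM in vehicle chronic against 0.140 ± 0.0738 RPKM in vehicle acute cultures.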

How the data were processed

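Per the labels' protocols, RNA was isolated with Trizol and sequenced from poly(A)-selected NEBNext Ultra libraries. Per the submitters' processing notes, bcl2fastq 2.17, HTSeq, edgeR and mm9 are named without a role; aligner, annotation and strand are not stated, so reads of a gene and of its antisense or overlapping partner may be mixed. The authors deposited RPKM, and their normalization is not described. Every value of the 13202 genes was a whole number of reads (within 0.001 reads) once gene length and depth were solved for, which gave the depths. Libraries of a group differed by more than sampling noise. One limma fit (3.58.1, R 4.3.3) of log2(RPKM + 1), which understates changes of low genes, took a mean for each of the 4 groups, an empirical Bayes trend and 8 residual degrees of freedom; p-values were two-sided and adjusted over 12109 genes. The fit was tested on simulated data. The members and lists were chosen with earlier results of these data known; lists are given as counts. Some list members are not reported here by name. Named genes were 15 chosen genes, up to 2 called members per list with the largest difference, and 4 highest and 4 lowest co-culture genes. The 8 highest and 8 lowest differences at 5 RPKM or more, and the 6 in each direction with the largest opposite effects, were added. Genes high in the co-culture, predicted genes and small RNAs were left out of these added sets. Alternatives were a 0.1 pseudocount, other filters (none, or 5 RPKM), median-rescaled libraries, a fit of all 21 libraries, a replicate block, counts without co-culture genes, and each library left out. Group weights, a looser co-culture threshold and limma voom on the recovered reads with library totals were added after seeing the data.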

Additional observations from a re-analysis of the deposited data

Results flagged for a closer look

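The 12 genes below moved in opposite directions in the OT-I and vehicle experiments, with both effects called and the difference of effects itself tested (limma, adjusted p under 0.05), and in each the libraries of the 2 groups of an experiment did not overlap. They were selected for their opposite calls, as the 6 in each direction whose smaller effect was largest. Their calls and lack of overlap therefore give no added support. Genes high in the co-culture, predicted genes and small RNAs were left out of the selection. Rising in OT-I and falling in vehicle chronic cultures, the lymphotoxin gene Lta had a difference of 4.43, Gbp2 one of 4.03, and Nod1, a sensor of bacterial peptidoglycan, one of 4.01. Nod1 had 30.3 ± 1.17 RPKM in OT-I chronic and 8.95 ± 0.630 RPKM in OT-I acute cultures, against 2.00 ± 0.171 RPKM in vehicle chronic and 14.4 ± 1.11 RPKM in vehicle acute cultures (SD, n = 3 each). Tpst1, a tyrosylprotein sulfotransferase, had a difference of 3.57, Tnfrsf11b, the decoy receptor osteoprotegerin, one of 3.10, and Heatr9 one of 2.89.

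Falling in OT-I and rising in vehicle chronic cultures, Cth had a difference of -4.86, the actin-binding protein gene Avil one of -4.42, and Ptgir, the prostacyclin receptor, one of -4.02. Avil had 4.47 ± 0.298 RPKM in OT-I chronic and 17.1 ± 1.11 RPKM in OT-I acute cultures, against 22.6 ± 0.365 RPKM in vehicle chronic and 2.65 ± 0.292 RPKM in vehicle acute cultures (SD, n = 3 each). Atf5 had a difference of -3.70, the tyrosine kinase gene Matk one of -3.30, and the CD200 receptor family gene Cd200r4 one of -2.64.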

How the results depend on the processing

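Counts of genes whose effect was higher, lower, or higher or lower by 2-fold in OT-I cultures, and of genes changed in each experiment, stayed within 1.5 times their values in all 132 alternative counts. The 2-fold counts nevertheless depended on the pseudocount. From 820 higher and 1030 lower genes, they went to 1042 and 1526 at a pseudocount of 0.1, and to 1066 and 1515 by voom. Higher and lower genes numbered 3638 and 4287 at a pseudocount of 0.1, 4003 and 3981 with libraries rescaled to a common median (50.1% of calls higher, against 45.5%), and 3606 and 4067 by voom on recovered reads, where 7432 calls were shared and 7413 of these had the same sign. Leaving out each library in turn gave 3472 to 4047 higher and 4123 to 4605 lower genes, the upper ends both without OT-I acute replicate 3. With the replicate number as a block, 3503 genes were higher and 4139 lower. Deviations of same-numbered libraries from their group means had r of -0.217 to 0.0814 over the 6 pairs. Pairs with unlike numbers had r of -0.257 to 0.355. With 3 libraries per group such deviations are not independent, so this check cannot settle whether the numbers pair the samples. Of 106 named genes, 103 kept direction and call in every alternative. H2-Aa and Hspb1 lost the call by voom, Tox gained one without either of 2 libraries, and none reversed. For 15 called named genes the difference moved by over 1.5 times, in every case at a pseudocount of 0.1 or by voom, and was larger there (Adm, Bhlhe41, Cd63, Crabp2, Cth, Cyb5r2, Gjb2, Gm4841, Heatr9, Hmgcs1, Hspa1a, Il1r2, Osr2, Slc7a11 and Tnfrsf11b). At a pseudocount of 0.1, Crabp2 was at -8.20, Osr2 at -8.20, Hspa1a at -4.02 and Hmgcs1 at 1.11, and by voom Cth was at -7.40 and Gjb2 at -6.32. With rescaled libraries the median difference of the cytosolic ribosomal proteins was 0.04, the only list median that changed sign under that scaling, voom or group weights. The planned voom fit with TMM factors was not run. Depth limits low genes most.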

Other observations

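Polyclonal C57BL/6 cells, in a further experiment with repeated plate-bound anti-CD3 and no melanoma cells, gave chronic effects that share no libraries with either of the others. For DNA replication genes the median polyclonal effect was -0.25, beside 0.49 in OT-I and -0.92 in vehicle cultures, and for mitosis genes it was -0.93, beside -0.16 and -1.07. For the ATF4 and amino acid response it was 0.70, beside -1.10 in OT-I and 0.04 in vehicle cultures. Interferon-γ induced genes had a median polyclonal effect of -0.39, beside 0.30 and -1.77. Differences from the polyclonal effect were not tested here.

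Markers of NK cells and adherent cells also differed. The 3 tested NK cell markers, Eomes, Klrb1c and Ncr1, all had higher effects in OT-I cultures (2 by voom), with Eomes at 33.9 ± 0.863 RPKM in OT-I chronic and 10.2 ± 0.299 RPKM in OT-I acute cultures, against 85.0 ± 0.657 RPKM in vehicle chronic and 91.5 ± 2.27 RPKM in vehicle acute cultures (SD, n = 3 each). CD8 T cells also express Eomes. Of 10 adherent cell markers, 3 had higher and 7 lower effects in OT-I cultures, where 30.2% and 36.3% of all genes tested were higher and lower, although their summed level was higher in OT-I chronic libraries. Higher adherent cell markers numbered 1 by voom, and 2 with group weights and in most fits that left out 1 library. Fn1 (fibronectin) had the highest difference of effects, 1.62, and Cav1 (caveolin 1) the lowest, -1.46. Of 4 tested myeloid markers, 3 had lower effects (median difference -0.60) and 1 a higher one. Lower myeloid markers numbered 2 by voom and with group weights. They also numbered 2 without OT-I acute replicate 3, OT-I chronic replicate 1 or 3, vehicle acute replicate 1, or vehicle chronic replicate 2. The higher one was Mpeg1 (perforin-2), at 15.6 ± 0.919 RPKM in OT-I chronic and 1.96 ± 0.123 RPKM in OT-I acute cultures, against 0.0183 ± 0.00786 RPKM in vehicle chronic and 0.0781 ± 0.0447 RPKM in vehicle acute cultures. Activated B cells express Mpeg1 too.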
